A study of Homo sapiens with 3 samples.

Results

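A set of 10 genes was followed in RNA-sequencing libraries of A549 cells: the CCN genes CYR61, CTGF and NOV, the YAP-TEAD target ANKRD1, the angiomotin-like genes AMOTL1 and AMOTL2, the Hippo kinase LATS2, the coactivator YAP1, the transcription factor TEAD1 and the LIM protein gene AJUBA. The members were chosen by gene symbol, with earlier results of these data known, and their ratios to the control library were among those results, so the values are given as a description and no test was run. All 10 were found among the 58735 genes in the files, where CYR61, CTGF and NOV carry their older symbols (now CCN1, CCN2 and CCN3). A549 is an established human lung adenocarcinoma line, and each group holds 1 library of total RNA: Control-sh, the control of the knockdown, and DDX24-sh1 and DDX24-sh2, in which DDX24, an RNA helicase, was depleted. The study's methods describe puromycin-selected stable cells made with lentiviral pLKO.1 vectors and name the empty vector as the control, whereas a figure legend speaks of a control shRNA, so which of them this library holds is not settled. All 3 libraries come from cultures kept in F12K medium with serum.

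CCN proteins are secreted, cysteine-rich proteins that bind the extracellular matrix, integrins and other receptors, and so change adhesion, migration and growth. CYR61 and CTGF are standard readouts of YAP and TAZ, coactivators that enter the nucleus and bind TEAD factors on DNA when the Hippo kinase cascade is low. LATS kinases phosphorylate YAP and TAZ and hold them in the cytoplasm, angiomotins bind them directly, and AJUBA binds and restrains LATS kinases. Several of these inhibitors, LATS2 and AMOTL2 among them, are themselves YAP-TEAD targets, which gives the pathway negative feedback.

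Library totals ran from 17218884 counts (Control-sh) to 18337471 (DDX24-sh1), with 17847190 for DDX24-sh2. DDX24 itself had 2010, 637 and 765 counts, 29.6% and 36.0% of the control level in DDX24-sh1 and DDX24-sh2. The 5 epithelial markers KRT7, KRT8, KRT18, EPCAM and CDH1 were above 1 CPM (counts scaled to library size) in every library, with EPCAM the lowest at 1.59 to 1.87 CPM, and their summed level ran from 7631 to 7667 CPM. PTPRC, the general leukocyte marker, and CD3E, a marker of T cells, were at 0 in all 3 libraries. The summed level was 4.43 to 8.14 CPM for 4 leukocyte markers, nearly all of it from CD14, and 0.499 to 0.765 CPM for 3 endothelial markers, with 0 genes above 1 CPM. The 4 fibroblast markers COL1A1, COL3A1, DCN and LUM summed to 9.90 CPM in the control, 15.4 in the first and 12.1 in the second shRNA library. In that order LUM gave 1.58, 4.37 and 3.77, COL1A1 8.14, 9.51 and 7.92 and COL3A1 0.117, 1.48 and 0.443 CPM, and DCN had at most 1 count. CDH1, which encodes E-cadherin, stood at 31.5, 19.6 and 14.5 CPM in the same order. The part of these markers in the values of the members was not tested. The deposited FPKM values of the shRNA libraries carry each other's labels: with the labels exchanged, the length-adjusted ratio of FPKM to count stayed within 1% of a constant for all 11641 genes of 50 or more counts in every library, and as given for 5.33% and 5.32% of them. Which label is right is not known, and each shRNA library is named here by the label on its counts.

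TEAD factors bind DNA at the letters GGAATG, so stretches before gene starts were searched for them, and each match is shown. RefSeq's table of promoters (GRCh38.p14) matched 7 of the 10 genes with 9 entries, and CYR61, NOV and TEAD1 were not among them. GGAATG was searched on both strands (as CATTCC on the reverse) in the 250 bases before each start. Of 35116 entries in the whole table, 11.9% held at least 1 match, 0.928% at least 2 and 0.0797% at least 3. Of the 9 entries of the members 5 held at least 1 match, with 1 such entry each for CTGF, ANKRD1, AMOTL2, YAP1 and AJUBA. CTGF held 3, which start 169, 104 and 95 bases before its start. The 249 bases of CTGF that lie before its annotated first exon (minus strand, chr6:131951374-131951622) are given with GGAATG in capitals, because this was the member with the most matches:
CTGF: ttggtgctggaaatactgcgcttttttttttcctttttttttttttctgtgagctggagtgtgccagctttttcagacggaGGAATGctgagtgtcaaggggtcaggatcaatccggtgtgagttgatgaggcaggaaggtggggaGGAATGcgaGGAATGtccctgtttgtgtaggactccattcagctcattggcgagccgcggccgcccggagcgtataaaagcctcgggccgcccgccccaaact

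The other matches are shown with 10 bases on either side, in the order ANKRD1 (220 and 128 bases before its start, chr10:90921292-90921317 and chr10:90921200-90921225, minus strand), YAP1 (162 bases, chr11:102110275-102110300, plus strand), AJUBA (59 bases before its second entry, chr14:22976886-22976911, minus strand) and AMOTL2 (69 bases before its second entry, chr3:134374501-134374526, minus strand). They are set side by side so that the letters around the shared core can be compared:
ANKRD1 first: caccaccaaaGGAATGgccctctcac
ANKRD1 second: cactgagtctGGAATGaaaattcacc
YAP1: ggagtgtgcaGGAATGtagcaacttg
AJUBA: gaagttggctGGAATGaagccaaagc
AMOTL2: gaaactctcaCATTCCtggcatagca
The second entries of AJUBA and AMOTL2 start 5800 and 1032 bases inside the genes as annotated by GENCODE, and the ANKRD1 start lies 189 bases inside. The second ANKRD1 match and those of AJUBA and AMOTL2 fall in annotated exons of the same gene, and that of YAP1 in an exon of AP001527.2, while the first ANKRD1 match and all 3 of CTGF lie in no annotated exon. LATS2 and AMOTL1 held no match in this window. The AMOTL1 entry starts 61925 bases inside the gene as annotated by GENCODE, so the stretch before the annotated gene start was not searched. A match is a description of letters and not a binding site, and the counts do not show which start was used.

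Levels were compared between genes per length, as FPKM computed from the counts and the gene lengths in the files. For the members that overlap another gene, that length equals all their annotated exon bases together, which can exceed the transcript in use. Annotated transcripts numbered 1 for CTGF and ANKRD1 but 13 for AMOTL2, so orders and ratios between genes depend on this choice of length. All 10 members had at least 1 CPM in every library. In Control-sh the order was CYR61 (106 FPKM), AJUBA (69.4), CTGF (53.8), AMOTL2 (48.9), TEAD1 (38.9), YAP1 (17.99), LATS2 (13.2), ANKRD1 (11.2), AMOTL1 (4.04) and NOV (1.36). The 95% counting intervals of neighbours in that order did not overlap, but they do not cover the choice of length. In Control-sh, CYR61 was above 97.8% of the 13984 genes whose mean over the libraries reached 1 CPM, and NOV above 21.7%. CYR61 stayed highest in both shRNA libraries, at 50.7 and 42.5 FPKM, and ANKRD1 was lowest in both. In DDX24-sh1 the intervals of AJUBA and AMOTL2 and those of AMOTL1 and NOV overlapped, and in DDX24-sh2 those of CTGF and TEAD1, of LATS2 and NOV and of NOV and AMOTL1.

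**Figure D1:**
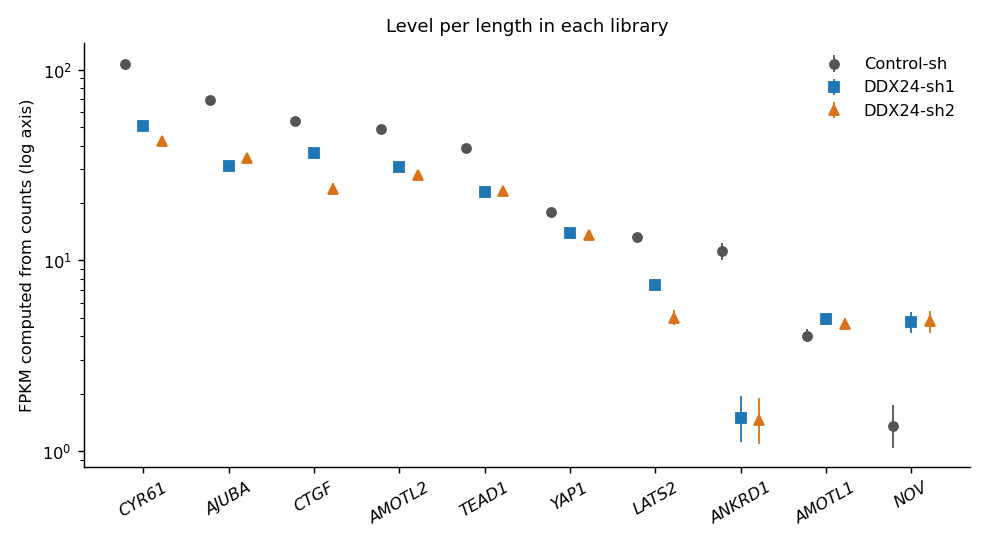
Level per length of each member in the 3 libraries, as FPKM computed from the counts on a log axis, with bars for the 95% counting interval. CYR61 goes from 106 FPKM in Control-sh to 50.7 and 42.5, ANKRD1 from 11.2 to 1.49 and 1.46, and NOV from 1.36 to 4.75 and 4.79.

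Each shRNA library was compared with Control-sh to see how these genes stood after DDX24 depletion. ANKRD1 was lower by the most, to 13.3% and 13.0% of the control level, CYR61 and AJUBA stood at 39.9% to 49.6% of it, and NOV was 3.49 and 3.52 times the control level. Of the 10 members, 3 were at least 2-fold lower in DDX24-sh1, where 2.27% of the 13984 genes were, and 5 in DDX24-sh2, where 3.07% were. NOV was the 1 member at least 2-fold higher in each library, beside 2.32% and 2.89% of genes. At any size, 8 members were lower in DDX24-sh1 (52.6% of genes) and 2 were higher (47.4%), and in DDX24-sh2 again 8 were lower (53%) and 2 higher (47%). Counted over both libraries, 3 members were at least 2-fold lower (1.38% of genes) and 1 was at least 2-fold higher (1.19% of genes). At any size 8 were lower in both (40.2%) and 2 higher in both (34.6%), the latter being NOV and AMOTL1. The counting interval lay below 0 in both libraries for the same 8 (20.6%) and above 0 in both for the same 2 (14%), and it held 0 in at least 1 library for 0 members, beside 62.8% of genes. Since the members were picked with this contrast known, nothing is read from these shares, and both comparisons share Control-sh. All intervals are exact 95% intervals from the counts of 2 libraries and cover counting error only, since there are no replicates. With 1 control library, an effect of the knockdown and the state of that culture cannot be told apart, nor can fewer expressing cells and less RNA per cell.

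Positions of the members are those of GRCh38 with GENCODE 29. CYR61 (ENSG00000142871, chromosome 1, 85580761 to 85583962, plus strand) encodes CCN1, a matricellular protein and immediate early gene product. There were 4462 CYR61 counts in the control library, against 2278 for DDX24-sh1 and 1882 for DDX24-sh2. Both shRNA libraries were well below the control, and DDX24-sh2 was the lowest. The log2 ratio was -1.07 (interval -1.14 to -0.997) for DDX24-sh1, and for DDX24-sh2 it was -1.33 (interval -1.40 to -1.25). The ratio of DDX24-sh2 to DDX24-sh1 was -0.26 (interval -0.35 to -0.17), so the shRNA libraries differed by more than counting error.

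CTGF (ENSG00000118523, chromosome 6, 131948176 to 131951373, minus strand) encodes CCN2, a matricellular protein known for its part in fibrosis. Its counts were 2146 in the control, 1557 with the first shRNA and 1005 with the second. The libraries were thus spread in 3 steps, with DDX24-sh1 at 67.7% and DDX24-sh2 at 44.3% of the control. The log2 ratios were -0.56 (interval -0.66 to -0.47) and -1.17 (interval -1.28 to -1.07). Between the shRNA libraries the log2 ratio was -0.61 (interval -0.73 to -0.50), the widest gap among the members. An antisense gene, AL133346.1, shares 195 exonic bases with CTGF and had 1, 0 and 0 counts.

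NOV (ENSG00000136999, chromosome 8, 119416306 to 119424353, plus strand) encodes CCN3, which often acts against CCN2. Only 62 NOV counts were found in the control, against 232 for DDX24-sh1 and 231 for DDX24-sh2. Both shRNA libraries lay together, far above the control. The log2 ratios were 1.77 (interval 1.39 to 2.23) and 1.79 (interval 1.41 to 2.25), and the ratio of DDX24-sh2 to DDX24-sh1 was 0.01 (interval -0.26 to 0.28). The antisense gene that overlaps NOV, AC021733.1, shares no exonic base with it and was at 0 in every library.

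The CCN family has 6 genes. Of the other 3, 0 of those with enough counts were at least 2-fold lower in either library, beside 2.27% and 3.07% of all genes. Likewise 0 were at least 2-fold higher, beside 2.32% and 2.89%. WISP2 (CCN5), with 578, 725 and 579 counts, stood at a log2 ratio of 0.23 (interval 0.07 to 0.39) for DDX24-sh1, and of -0.08 (interval -0.25 to 0.09) for DDX24-sh2. WISP1 (CCN4), with 53, 71 and 33 counts, was at 0.31 (interval -0.21 to 0.86) and -0.73 (interval -1.44 to -0.11), and WISP3 (CCN6), below the filter on low counts, had 0, 1 and 2 counts. The family's level per length summed to 169 FPKM in the control, against 101 and 77.9 in the shRNA libraries. CYR61 made up 63.0% of it in the control, 50.4% for DDX24-sh1 and 54.5% for DDX24-sh2. NOV went from 0.804% to 4.72% and 6.15%. Within a library, where no scaling between libraries enters, CYR61 was 78.4 times NOV per length in the control, but 10.7 times for DDX24-sh1 and 8.87 times for DDX24-sh2. The same ratio of CYR61 to CTGF was 1.98, 1.39 and 1.78.

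ANKRD1 (ENSG00000148677, chromosome 10, 90912096 to 90921276, minus strand) encodes a nuclear ankyrin repeat protein of stretched muscle and is a direct YAP-TEAD target. Against 378 ANKRD1 counts in the control there were 54 for DDX24-sh1 and 52 for DDX24-sh2. These levels were alike, 7.50-fold and 7.69-fold below the control. The log2 ratios were -2.86 (interval -3.35 to -2.49) and -2.89 (interval -3.39 to -2.52). Among the 13984 genes these ratios ranked 14 and 12 from the lowest of their libraries. Per length, CYR61 was 9.52 times ANKRD1 in the control and 34.0 and 29.2 times in the shRNA libraries, so ANKRD1 was lower by more than CYR61.

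**Figure D2:**
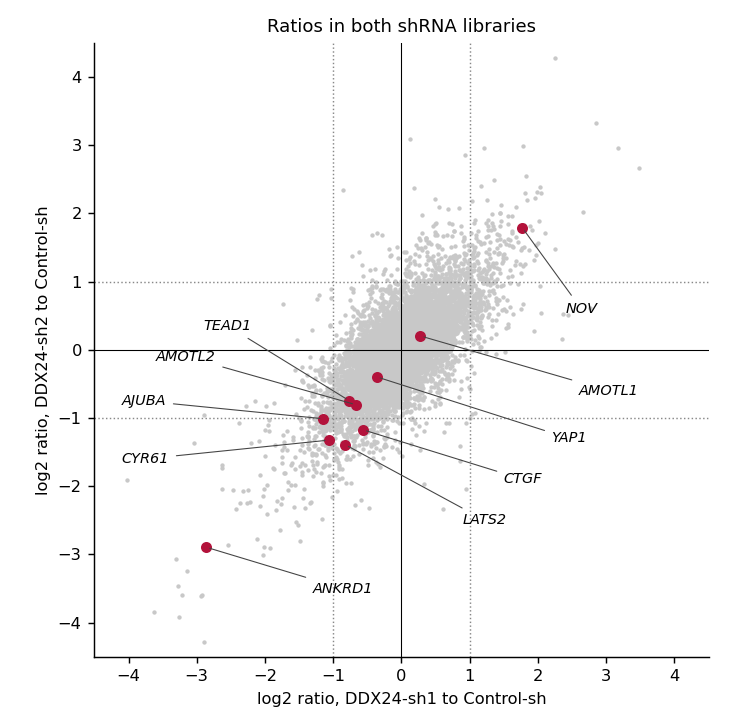
The log2 ratio to Control-sh in DDX24-sh1 (x axis) and DDX24-sh2 (y axis) for 13984 genes in grey and the 10 members in red, with dotted lines at a 2-fold change. Both axes share Control-sh and run from -4.5 to 4.5, which leaves out 2 genes. ANKRD1 (-2.86 and -2.89) and NOV (1.77 and 1.79) lie in opposite corners of the plot.

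Among the inhibitors of YAP, AMOTL2 and LATS2 were lower and AMOTL1 was slightly higher. AMOTL2 (ENSG00000114019, chromosome 3, 134355874 to 134375479, minus strand), an angiomotin-family scaffold at cell junctions that binds YAP, stood at 4996 counts in the control, 3373 for DDX24-sh1 and 3021 for DDX24-sh2. Both shRNA libraries were well below the control, at 63.0% and 57.2% of its level. The log2 ratios were -0.67 (interval -0.73 to -0.60) and -0.81 (interval -0.87 to -0.74). AMOTL1 (ENSG00000166025, chromosome 11, 94706431 to 94876753, plus strand), its paralog, had 692, 900 and 842 counts. Both shRNA libraries were above the control, by less than 1.5-fold. Its log2 ratios were 0.28 (interval 0.13 to 0.42) and 0.20 (interval 0.06 to 0.35). Per length, AMOTL2 was 12.1 times AMOTL1 in the control, 6.28 times for DDX24-sh1 and 6.02 times for DDX24-sh2. AMOT, the third gene of that family, had 2, 6 and 5 counts and was named with its values known.

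LATS2 (ENSG00000150457, chromosome 13, 20973032 to 21061547, minus strand), one of a pair of kinases that phosphorylate YAP and TAZ, stood at 1256 counts in the control, and at 759 and 505 in the shRNA libraries. The control was highest and DDX24-sh2 lowest, as for CTGF. Its log2 ratio was -0.82 (interval -0.96 to -0.70) for DDX24-sh1, -1.39 (interval -1.55 to -1.25) for DDX24-sh2, and -0.57 (interval -0.73 to -0.40) between the shRNA libraries. LATS1, the other kinase of the pair, counted 668 in the control, 315 and 391 in the shRNA libraries, and was picked out with these values known. The order of the shRNA libraries was the opposite for LATS1, whose log2 ratios were -1.18 (interval -1.38 to -0.99) and -0.85 (interval -1.04 to -0.67). Per length, LATS2 was 2.91 times LATS1 in the control, 3.73 times for DDX24-sh1 and 2.001 times for DDX24-sh2.

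AJUBA (ENSG00000129474, chromosome 14, 22971174 to 22982642, minus strand), a LIM-domain scaffold that binds LATS kinases, reached 7078 counts in the control, 3433 for DDX24-sh1 and 3712 for DDX24-sh2. Both shRNA libraries were far below the control, with DDX24-sh1 the lower. The log2 ratios were -1.14 (interval -1.20 to -1.08) and -1.01 (interval -1.07 to -0.95), the second being the member value closest to the 2-fold limit. With total counts as the only scaling it was -0.98, which leaves 2 members at least 2-fold lower in both libraries. Between the shRNA libraries the log2 ratio was 0.13 (interval 0.06 to 0.20). The related LIM proteins LIMD1 and WTIP, named with their values known, had log2 ratios of -0.73 and -0.64 for LIMD1 and of -0.25 and -0.53 for WTIP. AJUBA held 84.9% of the summed level of these 3 genes per length in the control, 79.4% for DDX24-sh1 and 80.99% for DDX24-sh2.

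Both the coactivator and its DNA-binding partner were lower too, by less than 2-fold. YAP1 (ENSG00000137693, chromosome 11, 102110461 to 102233423, plus strand), the coactivator itself, stood at 1933 counts in the control, 1611 for DDX24-sh1 and 1551 for DDX24-sh2. Both shRNA libraries lay close together, at 77.8% and 75.9% of the control level, and their ratio to each other of -0.04 had an interval of -0.14 to 0.07. The log2 ratios to the control were -0.36 (interval -0.46 to -0.27) and -0.40 (interval -0.50 to -0.30). An antisense gene, AP000942.2, shares 628 exonic bases with YAP1 and was at 0 in all 3 libraries, and the pseudogene YAP1P1, named as a near copy, 91.3% identical over 987 bases, had 0, 1 and 2 counts. WWTR1, which encodes TAZ, the paralog of YAP, had 2967, 3533 and 3428 counts. It was slightly above the control, at 0.15 (interval 0.08 to 0.22) and 0.13 (interval 0.06 to 0.20). TAZ transcripts were 1.15 times those of YAP1 per length in the control and 1.64 and 1.65 times in the shRNA libraries.

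TEAD1 (ENSG00000187079, chromosome 11, 12674591 to 12944483, plus strand), the most abundant of the TEAD genes here, gave 6832 counts in the control, 4309 for DDX24-sh1 and 4304 for DDX24-sh2. Both shRNA libraries were at the same level, 58.9% and 59.6% of the control. The log2 ratios were -0.76 (interval -0.82 to -0.71) and -0.75 (interval -0.80 to -0.69), with 0.02 (interval -0.04 to 0.08) between the shRNA libraries. TEAD4 (-0.39 and -0.36) and TEAD2 (-0.24 and -0.35) were lower by less, and TEAD3 was at 0.43 (interval 0.10 to 0.78) and 0.17 (interval -0.18 to 0.52). The share of TEAD1 in the summed level of the 4 TEAD genes per length was 59.7% in the control, 50.7% for DDX24-sh1 and 52.0% for DDX24-sh2. Their sum was 65.3, 45.2 and 44.6 FPKM. Of the vestigial-like cofactors, which compete with YAP for TEAD, VGLL4 was at 0.06 and -0.20 and VGLL3 at -0.13 and -0.27, while VGLL1 and VGLL2, below the filter, had at most 2 counts in a library. A near copy of TEAD1, AP001893.2 (93.4% identical over 198 bases), was at 0 in every library, and none of the genes that overlap any of the 10 members had more than 2 counts.

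The ratio between DDX24-sh1 and DDX24-sh2 was also followed for each member. Its interval lay beyond 0 for 5 of 10 members, which is near the 44.7% of all genes, so nothing is read from this count. Whether an interval clears 0 depends on the number of counts, and the genes beside the members were not matched on level. The 5 were CTGF, LATS2, CYR61 and AMOTL2, all lower in DDX24-sh2, and AJUBA, lower in DDX24-sh1. For ANKRD1, NOV, TEAD1, YAP1 and AMOTL1 the interval held 0, and for ANKRD1, with the fewest counts, it was as wide as -0.61 to 0.54. DDX24 itself was lower in DDX24-sh1 (29.6% of the control) than in DDX24-sh2 (36.0%).

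The wider pathway was described with lists of genes. A YAP-TEAD target signature of 22 genes, 5 of them members, had a median log2 ratio of -0.51 for DDX24-sh1 and -0.60 for DDX24-sh2, beside -0.02 and -0.03 over all genes. Without the members, the median of the other 17 was -0.22 and -0.24. Of these 17, 12 were below the control in the first and 13 in the second shRNA library, beside 52.6% and 53% of all genes. In each library 3 were at least 2-fold lower, beside 2.27% and 3.07% of all genes. The 3 were IGFBP3, an insulin-like growth factor binding protein (919, 354 and 470 counts, log2 ratios -1.47 and -1.04), NUAK2, an AMPK-related kinase (3218, 1606 and 1519 counts, -1.10 and -1.16), and RBMS3, an RNA-binding protein (39, 15 and 16 counts, -1.36 and -1.26), which passed the filter on low counts only through the control library. F3, which encodes tissue factor, is named as the 1 gene of the signature at least 2-fold higher in DDX24-sh1, beside 2.32% of all genes. In DDX24-sh2 0 were, beside 2.89%. Of the 17 genes, 4 were above the control in both libraries at any size, beside 34.6% of all genes. F3 counted 35, 92 and 74, which gave 1.25 (interval 0.72 to 1.90) and 0.96 (interval 0.40 to 1.62).

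**Figure D3:**
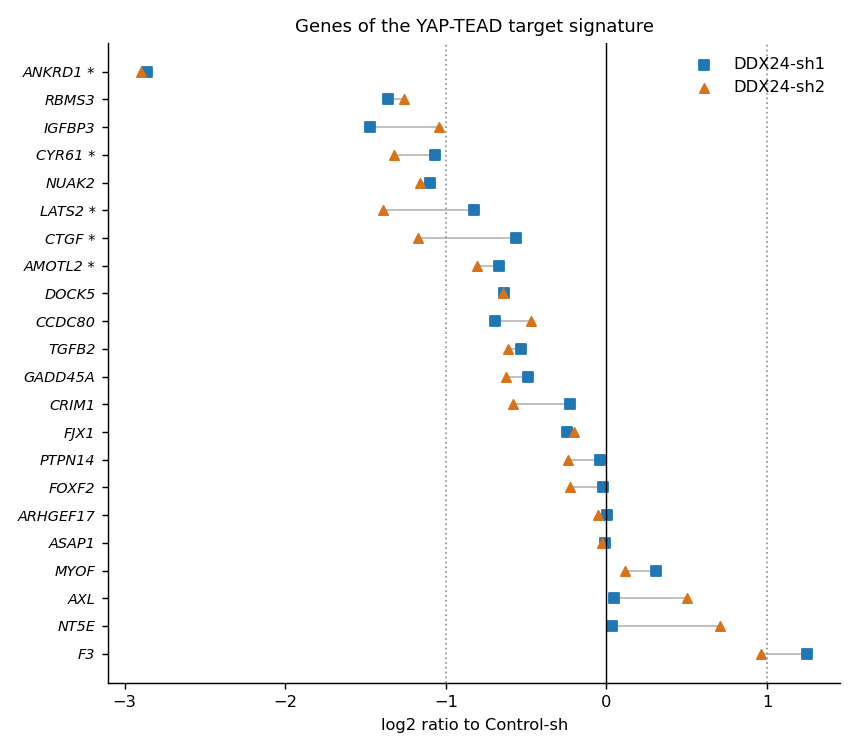
The log2 ratio to Control-sh of the 22 genes of the YAP-TEAD target signature in DDX24-sh1 (squares) and DDX24-sh2 (triangles), joined by a line for each gene, with members marked by an asterisk and dotted lines at a 2-fold change. The genes run from ANKRD1 at -2.86 and -2.89 to F3 at 1.25 and 0.96.

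Hippo kinases and regulators numbered 22 genes, of which 21 passed the filter and 4 are members. Their median log2 ratio was -0.25 and -0.29, and -0.20 and -0.28 without the members. In each library 12 of the 17 that are not members were below the control, beside 52.6% and 53% of all genes. Of these 17, 1 was at least 2-fold lower in DDX24-sh1 (LATS1) and 0 in DDX24-sh2, beside 2.27% and 3.07% of all genes. TEAD factors and cofactors, with 8 of 10 genes passing the filter, had medians of -0.19 and -0.31, or of -0.04 and -0.24 for the 6 that are not members. Of the 8, 0 were at least 2-fold lower in either library, beside 2.27% and 3.07% of all genes. Likewise 0 were at least 2-fold higher, beside 2.32% and 2.89%. The CCN family, with 5 of 6 genes, had medians of 0.23 and -0.73, which rest on WISP2 and WISP1.

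Receptors of CCN proteins were followed as the other end of the signal. All 11 genes listed passed the filter, with medians of -0.0008 and -0.01. In each library 6 of the 11 were below the control, beside 52.6% and 53% of all genes. ITGB3, which pairs with ITGAV in an integrin that binds CCN proteins, was the 1 receptor gene at least 2-fold higher in DDX24-sh1, beside 2.32% of all genes. In DDX24-sh2 0 were, beside 2.89%. The 95, 262 and 200 counts of ITGB3 gave 1.35 (interval 1.02 to 1.72) and 0.98 (interval 0.63 to 1.36). LRP6 was at -0.19 and -0.33 and ITGA6 at -0.17 and -0.22. ITGA5 was at 0.82 and 0.44, LRP1 at 0.78 and 0.24 and ITGAV at 0.39 and 0.10. ITGB1, the most abundant of them per length, was within 0.04 of the control in both libraries. NOTCH1, a receptor with which CCN3 has been shown to interact, was at -0.61 (interval -0.78 to -0.45) and -0.33 (interval -0.49 to -0.17). ITGB5 was at the control level in DDX24-sh1 (-0.0008, interval -0.04 to 0.03) and at -0.47 (interval -0.51 to -0.44) in DDX24-sh2.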

How the data were processed

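RNA from A549 cells was measured in 3 libraries, 1 per condition, grouped by the sample titles. The authors deposited raw counts per gene, whole numbers without normalization, and FPKM values per gene. The submitters' processing notes list Bowtie2 2.0.6, TopHat2 2.0.9, Cufflinks 2.1.1 and Cuffdiff 2.1.1 with no role for each. The counter, the strand setting and the treatment of reads with several matches are not given in the sources used here, so reads of overlapping genes on opposite strands may not be separable. All 58735 genes have the positions of GENCODE 29 on GRCh38.

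The deposited counts were scaled by TMM in edgeR 4.0.16 (R 4.3.3), and log2 ratios taken between log2 CPM values, to which edgeR adds a prior count (here 2). Percentages of the control, folds and intervals were computed from scaled counts without that prior count. They therefore differ slightly from the log2 ratios of genes with few counts, such as ANKRD1 and NOV. FPKM were computed from scaled counts and the deposited gene lengths. With 1 library per group there was no test and no p-value. Genes were kept from a mean of 1 CPM upward, and a gene was counted as changed at 2-fold or more. Intervals of ratios and shares are exact 95% binomial (Clopper-Pearson) and those of levels exact Poisson. They cover counting error only, because each group holds 1 library. No molecular identifiers separate copies of 1 molecule, so the intervals may be too narrow for counting error as well. Copies were searched with BLAST 2.17.0 (at least 90% identity over 150 bases). Plots come from matplotlib 3.10.9 (Python 3.11.15). The steps were run on simulated counts that varied by counting error only and held changes larger than the 2-fold limit. The outcome does not bear on values near that limit or on differences between cultures.

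Members and lists were chosen with earlier results of these data known. Genes named were the members, genes overlapping them, list genes 2-fold changed in both libraries, any kept gene of the CCN, TEAD and receptor lists, and the 5 nearest genes to CYR61 and NOV. Other genes, among them LATS1, AMOT, LIMD1, WTIP, F3, SRF, WISP3, VGLL1, VGLL2, the near copies and single cell type markers, were named after their values were seen. Alternatives were DESeq2 1.42.0 size factors, total counts, a prior count of 0.5, the deposited FPKM as log2(FPKM + 0.1) with labels as given and exchanged, a limit of 1.5-fold, no filter or 10 CPM, and protein-coding genes only.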

Additional observations from a re-analysis of the deposited data

How the results depend on the processing

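No paired analysis was possible because each condition has 1 library. None could be left out, for the same reason. Under DESeq2 size factors, total counts, a prior count of 0.5 and the FPKM with exchanged shRNA labels, all 20 member ratios stayed within their counting intervals. With the FPKM labels as given, 10 of the 20 left them, those of CYR61, CTGF, AMOTL2, LATS2 and AJUBA, and each kept its direction. The median of the CCN family, which rests on 1 gene, then changed sign, to -0.62 in DDX24-sh1 and 0.24 in DDX24-sh2. It also changed sign in DDX24-sh1 with a mean of at least 10 CPM, to -0.56, since NOV and WISP1 are left out.

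The counts over both libraries moved with the limits by construction. With a limit of 1.5-fold, 6 members were lower and 1 was higher, beside 660 lower and 592 higher of the 13984 genes. With no filter, 912 of the 58735 genes were lower and 719 higher. With a mean of at least 10 CPM, 105 of the 9661 genes were lower and 34 higher. At that filter 0 members were higher and 2 lower, since NOV and ANKRD1, respectively, fall below that limit. Scaling by total counts moved ITGB3 past the 2-fold limit in DDX24-sh2 and AJUBA short of it. Over all genes, the 3 scalings gave median ratios of -0.03 to 0.0029 (log2).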

Other observations

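Among 12 actin cytoskeleton genes known as targets of SRF, a transcription factor that shares targets such as CYR61 and ANKRD1 with YAP, 10 passed the filter on low counts. Their median log2 ratio to Control-sh was 0.13 and 0.22. That of the target signature was -0.51 and -0.60, or -0.22 and -0.24 without the members. Of the 10 genes, 4 were below the control in DDX24-sh1 and 2 in DDX24-sh2, beside 52.6% and 53% of all genes. MYL9 and TAGLN were the 2 at least 2-fold higher in both libraries, beside 1.19% of all genes. MYL9, a myosin light chain of contractile cells, counted 171 in the control, 646 for DDX24-sh1 and 434 for DDX24-sh2, which is a log2 ratio of 1.81 (interval 1.57 to 2.07) for the first and of 1.25 (interval 1.004 to 1.53) for the second. TAGLN, an actin-binding protein of smooth muscle, had 151, 480 and 495 counts, 1.56 (interval 1.30 to 1.84) and 1.62 (interval 1.37 to 1.90). SRF itself, named with its values known, was at -0.07 (interval -0.20 to 0.06) and -0.23 (interval -0.37 to -0.10).

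The 5 genes with a pair of log2 ratios nearest to that of CYR61, by Euclidean distance among the 9661 genes that averaged 10 CPM or more, were CXCL5, OCLN, SMOX, PIM3 and SDF2L1, at distances of 0.02 to 0.09. For NOV they were ANPEP, TAGLN, HSPA1B, ARRDC3 and HSPA8, at 0.17 to 0.36. These distances rest on 3 libraries and 1 shared control.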
